A study of Homo sapiens with 20 samples.

Results

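Polycomb repressive complex 2 (PRC2) is the enzyme complex that methylates histone H3 at lysine 27. The transcripts of its subunit genes were followed here in LNCaP cells, a human prostate adenocarcinoma line, in which the histone methyltransferase EHMT1 was silenced or overexpressed. The genes were chosen by name, as EZH2, EZH1, EED, SUZ12, JARID2, AEBP2, PHF19, MTF2, RBBP4 and RBBP7. All 10 were found, among the 57773 genes counted in each of the 2 tables, and all 10 passed the filter on low counts in both tests.

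RNA-seq was performed in 10 conditions. In parental LNCaP cells EHMT1 was silenced for 2 days with a 20 nM siRNA pool (siEHMT1), and control cells received the same dose of nontarget siRNA (siNTC). Each of these groups had 2 samples. The other 8 conditions came from 4 puromycin-selected LNCaP lines, each carrying V5-tagged EHMT1 in a doxycycline-inducible lentiviral vector as WT, K450R, K451R or K450RK451R. Each line received vehicle (Veh) or 0.25 µg/mL of doxycycline (Dox) for 2 days, so every Veh sample carries the vector too, and doxycycline itself and the induced EHMT1 cannot be told apart. All lines keep their endogenous EHMT1, and each form of EHMT1 is represented by a single line. The 2 numbered columns of each stable-line condition agreed within counting noise, with a chi-square per degree of freedom between 0.995 and 1.02, and were summed to 1 sample. The siRNA samples of a group differed by more than that, although no label says that they came from separate cultures, and p-values then measure only the spread between these samples.

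PRC2 is built on a core in which EZH2 or EZH1 supplies the catalytic SET domain, EED binds the methyl mark, SUZ12 is the scaffold, and RBBP4 or RBBP7 is the histone-binding subunit. Accessory proteins define 2 forms, PRC2.1 with a Polycomb-like protein such as MTF2 or PHF19, and PRC2.2 with JARID2 and AEBP2. EZH2 is known for its high expression in dividing cells and in advanced prostate cancer, whereas EZH1 is the form typical of resting cells. EHMT1 acts on lysine 9 of the same histone.

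The targeted gene behaved as labelled in every sample. EHMT1 was at 83.6 and 79.0 CPM (read counts relative to library size, scaled by TMM, which corrects the size for composition) in siNTC and at 27.8 and 29.2 CPM in siEHMT1. This was a log2 fold change of −1.51 ± 0.11 (SE, adjusted p = 1.48e-07, edgeR quasi-likelihood test). In the stable lines EHMT1 lay between 73.4 and 91.0 CPM in Veh and between 676 and 859 CPM in Dox, where the reads of the transgene are included. Depth ran from 5593400 to 12438006 counts over the siRNA samples and from 8436791 to 12407739 counts over the summed conditions. The floor of 3 counts corresponded to 0.228 to 0.561 CPM. The siNTC replicate 2 sample stood apart, with the fewest counts and with 10.0% of them on 2 pseudogenes that resemble ribosomal RNA, against at most 1.00% in the other samples. The luminal prostate markers were present, with a summed level of 5701 to 13210 CPM over 9 genes. Of the markers of other cell types, the basal genes TP63 and KRT5 and the immune genes PTPRC and CD3E were at or near 0, with a highest summed level of 1.56 CPM for the 3 basal genes and 1.90 CPM for the 5 neuroendocrine genes. COL1A1 (fibroblast) and VWF (endothelial) had the most counts of these markers, while the fibroblast genes COL1A2, LUM and DCN were at or near 0.

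No PRC2 gene passed the test in either comparison. At an adjusted p under 0.05, 0 of the 10 genes were called for siEHMT1 against siNTC and 0 of 10 for Dox against Veh across the 4 lines. The shares among all genes tested were 0.131% (19 of 14532) and 2.11% (298 of 14105). At an unadjusted p under 0.05 the members again numbered 0 in both, against 9.55% and 14.4% of all genes. With DESeq2, 0 members were called in both comparisons as well, although it gave no adjusted p for 8 members in the siRNA samples and 2 in the stable lines. The median log2 fold change over the 10 genes was 0.012 for siEHMT1, with −0.0021 over all genes, and −0.033 for Dox, with 0.0050 over all genes. At this number of samples, differences within the intervals given below were not detectable.

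**Figure D1:**
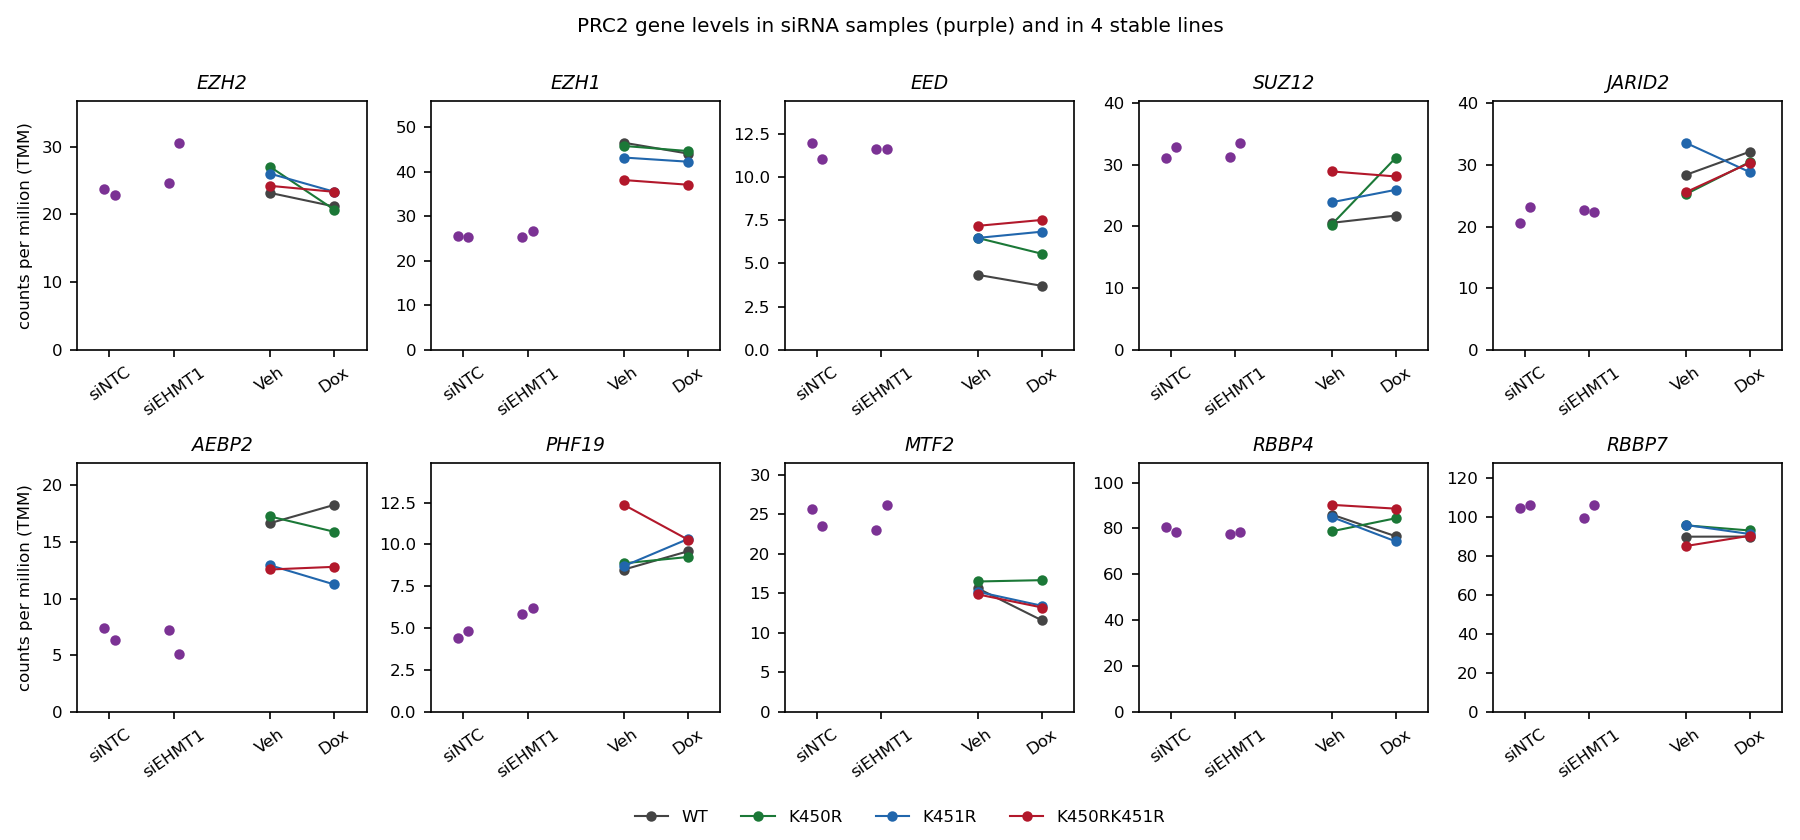
CPM of the 10 PRC2 genes on axes that start at 0, with the 4 siRNA samples as purple points and each stable line as a Veh and a Dox point joined by a line. EZH2 descends from Veh to Dox in every line, SUZ12 climbs from 20.3 to 31.1 CPM in K450R, and EED is at 11.0 to 11.97 CPM in the siRNA samples and at most 7.51 CPM in the stable lines.

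The promoters are shown for the enzyme genes EZH2 and EZH1, which were lower with Dox in all 4 lines, and for SUZ12, which had the largest ratio within a line. E2F factors, whose programme the study examined, drive many genes of DNA replication, and the CCAAT box and the NRF1 site are common elements of such promoters. The stretches run from 250 bases before to 25 bases after the annotated start and are taken from RefSeq on GRCh38.p14. Capitals mark the words TTTCGCGC, TTTGGCGC, TTTCCCGC and TTTGCCGC (E2F), CCAAT, and the NRF1 word (GCGC, any base, then TGCGC), searched on both strands. The EZH2 stretch is chr7:148884267-148884541 on the minus strand, EZH1 is chr17:42745016-42745290 on the minus strand, and SUZ12 is chr17:31936757-31937031 on the plus strand.
EZH2: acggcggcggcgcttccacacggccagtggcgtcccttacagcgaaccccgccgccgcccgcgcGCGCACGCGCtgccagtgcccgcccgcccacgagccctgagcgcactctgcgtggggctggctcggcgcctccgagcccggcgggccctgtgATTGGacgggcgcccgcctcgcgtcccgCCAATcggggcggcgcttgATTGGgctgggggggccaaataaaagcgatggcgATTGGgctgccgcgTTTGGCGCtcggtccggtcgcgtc
EZH1: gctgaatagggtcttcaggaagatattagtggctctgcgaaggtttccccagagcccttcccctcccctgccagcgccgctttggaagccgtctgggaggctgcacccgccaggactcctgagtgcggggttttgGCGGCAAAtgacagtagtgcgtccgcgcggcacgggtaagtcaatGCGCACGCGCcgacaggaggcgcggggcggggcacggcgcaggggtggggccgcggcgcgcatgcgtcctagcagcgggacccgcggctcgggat
SUZ12: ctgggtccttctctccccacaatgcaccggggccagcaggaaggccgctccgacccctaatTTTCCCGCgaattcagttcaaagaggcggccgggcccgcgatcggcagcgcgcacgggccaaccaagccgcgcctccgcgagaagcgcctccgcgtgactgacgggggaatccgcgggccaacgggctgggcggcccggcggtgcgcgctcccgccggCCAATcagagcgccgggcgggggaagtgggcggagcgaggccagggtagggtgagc

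An E2F word was found in all 3 stretches. In EZH2 it was TTTGGCGC at bases 2 to 9, counted from the start as base 1, in EZH1 it was TTTGCCGC on the opposite strand at −115 to −108, and in SUZ12 it was TTTCCCGC at −189 to −182. EZH2 also held 4 CCAAT words and 1 NRF1 word, EZH1 held an NRF1 word but no CCAAT word, and SUZ12 held 1 CCAAT word. Over windows of 300 bases that end 50 bases after the start, an E2F word was found for 6 of the 10 genes (AEBP2, EZH1, EZH2, MTF2, PHF19 and SUZ12). Among 34796 windows of all genes, 3.30% held one, and the 10 genes have 15 windows, of which 6 held one. A CCAAT word was found for 7 genes, in 10 of the 15 member windows, and in 34.6% of all windows. An NRF1 word was found for EED, EZH1, EZH2 and RBBP7, in 4 of the 15 windows, and in 5.75% of all windows. EED and RBBP7 held no E2F word, and neither did JARID2 or RBBP4. A match describes the letters only, and binding was not measured here.

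EZH2, the catalytic subunit of dividing cells, lies on chromosome 7 (148504349 to 148581413 on GRCh37, minus strand). Its level was 23.8 and 22.8 CPM in siNTC and 24.6 and 30.6 CPM in siEHMT1. Both siEHMT1 samples were above both siNTC samples, a pattern that 20.1% of all genes shared. The log2 fold change was 0.24 (95% interval −0.054 to 0.54, adjusted p = 0.614), and it was 0.079 without siEHMT1 replicate 2 and 0.39 without siEHMT1 replicate 1. In the stable lines EZH2 went the other way. The WT line had 23.2 CPM in Veh and 21.2 in Dox, K450R had 27.02 and 20.7, K451R had 26.01 and 23.3, and K450RK451R had 24.2 and 23.3. All 4 lines were thus lower with Dox, as were 10.6% of all genes, while the ranges of the Veh lines (23.2 to 27.02) and Dox lines (20.7 to 23.3) overlapped slightly. Across lines the log2 fold change was −0.17 (95% interval −0.38 to 0.040, adjusted p = 0.475), so a Dox level as low as 0.768 times the Veh level lies within the interval. The difference between the knockdown and overexpression values was not tested, because the tables come from different cells.

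The largest EZH2 difference within a line was in K450R. There 213 counts in Veh and 190 in Dox gave a log2 ratio of −0.39 with a counting interval of −0.68 to −0.096. Of the genes with at least 100 counts in that line, 5.98% had a lower ratio. K450R had the highest EZH2 level of the 4 Veh lines and the lowest of the 4 Dox lines. With the columns numbered 1 or 2 used alone, the log2 ratio ranged from −0.64 to −0.15. Each condition is 1 sample, so these intervals cover counting error only and no test within a line is possible.

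EZH1, the catalytic subunit of resting cells, lies on chromosome 17 (40852293 to 40897067, minus strand). It was at 25.7 and 25.4 CPM in siNTC and at 25.4 and 26.7 CPM in siEHMT1, with overlapping groups. The log2 fold change was 0.028 (95% interval −0.25 to 0.30). With Dox, EZH1 moved from 46.5 to 44.1 CPM in WT, from 45.8 to 44.6 in K450R, from 43.2 to 42.3 in K451R and from 38.1 to 37.1 in K450RK451R. EZH2 and EZH1 were the 2 members lower with Dox in all 4 lines, and no member was higher in all 4, as against 10.2% of all genes. Some of these log2 ratios changed sign with single columns. With the columns numbered 1, EZH2 in K450RK451R was at 0.0081 and EZH1 in K450R at 0.084. With the columns numbered 2, EZH1 in WT was at 0.018. The EZH1 differences were small, at −0.078 to −0.032 on the log2 scale, and every counting interval included 0. K450RK451R was the lowest line for EZH1 in Veh and in Dox, and the 95% interval across lines was −0.20 to 0.12 around −0.042.

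SUZ12, the scaffold subunit, lies on chromosome 17 (30264026 to 30328057, plus strand). It showed the largest ratio of any member within a line. In K450R it was at 20.3 CPM in Veh and 31.1 CPM in Dox (160 and 286 counts), a 1.53-fold ratio with a counting interval of 1.26 to 1.87, and 1.87% of the genes with at least 100 counts had a higher ratio there. The K450R columns held 86 and 74 counts in Veh and 134 and 152 in Dox. K450R had the lowest SUZ12 level of the 4 Veh lines and the highest of the 4 Dox lines. The other lines went from 20.6 to 21.7 CPM (WT), from 23.9 to 25.9 (K451R) and from 28.9 to 28.1 (K450RK451R), with intervals that included 0. The log2 fold change across lines was 0.18 (95% interval −0.040 to 0.41, adjusted p = 0.468), 0.049 without the K450R line and 0.27 without the K450RK451R line (unadjusted p = 0.0361, adjusted p = 0.376). In the siRNA samples SUZ12 was at 31.1 and 32.9 CPM in siNTC and 31.2 and 33.5 CPM in siEHMT1, with a log2 fold change of 0.017 (95% interval −0.24 to 0.28). The near-identical pseudogene SUZ12P held 17.9% as many counts as SUZ12 in the siRNA samples and 20.8% as many in the stable lines. How the counting split reads between them is not known, and the SUZ12 values are uncertain to that extent.

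EED, the subunit that reads the methyl mark, lies on chromosome 11 (85912254 to 85989855, plus strand). It had 32 to 95 counts per stable-line condition, the lowest of all members there. The siNTC samples were at 11.97 and 11.0 CPM and both siEHMT1 samples at 11.6 CPM, a log2 fold change of 0.0075 (95% interval −0.38 to 0.40). In the lines EED went from 4.34 CPM in Veh to 3.70 in Dox (WT), from 6.47 to 5.55 (K450R), from 6.47 to 6.83 (K451R) and from 7.17 to 7.51 (K450RK451R). The WT line was the lowest in both treatments and K450RK451R the highest, with a high to low ratio of 1.65 in Veh and 2.03 in Dox. The log2 fold change with Dox was −0.042 (95% interval −0.44 to 0.36), the widest interval of the 10 genes in that comparison.

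RBBP4 (chromosome 1, 33116743 to 33151812, plus strand) and RBBP7 (X, 16857406 to 16888485, minus strand) encode the histone-binding subunits, which also belong to other chromatin complexes. They had the most counts of the members and therefore the narrowest intervals. RBBP4 was at 80.5 and 78.7 CPM in siNTC and 77.5 and 78.6 CPM in siEHMT1. It was the 1 member with both siEHMT1 samples below both siNTC samples, as were 19.4% of all genes, and the log2 fold change was −0.031 (95% interval −0.23 to 0.17). With Dox, RBBP4 went from 86.1 to 76.6 CPM in WT and from 85.0 to 74.3 CPM in K451R, with counting intervals below 0. It went from 78.8 to 84.5 CPM in K450R and from 90.3 to 88.6 CPM in K450RK451R, with intervals that included 0. Across lines the log2 fold change was −0.068 (95% interval −0.21 to 0.071). Its pseudogenes RBBP4P1, RBBP4P2 and RBBP4P4 held 9.45%, 5.27% and 3.93% as many counts as RBBP4 in the siRNA samples. The gene SYNC on the opposite strand covers 22.8% of the RBBP4 exon bases, so RBBP4 is uncertain if strand was not used in counting. RBBP7 varied least of the members over the stable lines. It ranged from 99.6 to 106 CPM in the siRNA samples, from 85.0 to 95.8 CPM in Veh and from 89.9 to 93.0 CPM in Dox, with a log2 fold change of −0.00092 (95% interval −0.13 to 0.13) across lines. For RBBP7 a Dox level below 0.913 or above 1.09 times the Veh level lay outside the interval.

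**Figure D2:**
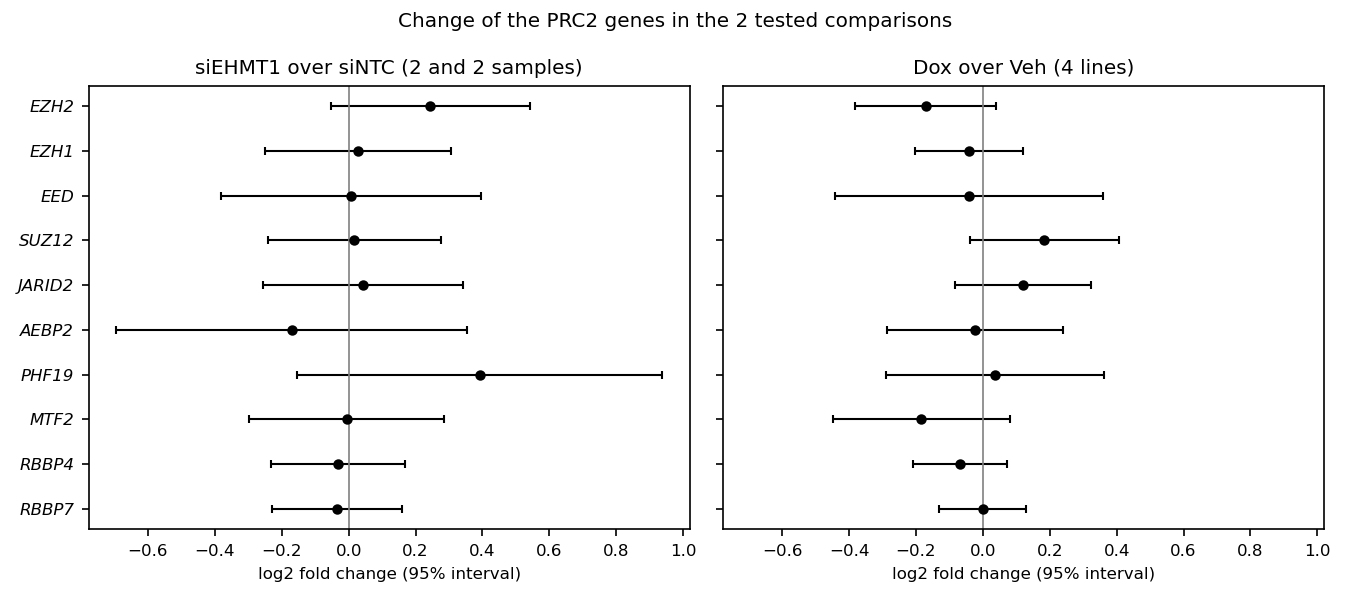
Log2 fold changes of the 10 PRC2 genes with 95% intervals, for siEHMT1 over siNTC on the left (2 and 2 samples) and Dox over Veh on the right (4 lines). Every interval includes 0, and the intervals are narrowest for RBBP7 and RBBP4 and widest for PHF19 and AEBP2 in the siRNA samples and for EED in the lines.

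JARID2, which helps to recruit PRC2.2, lies on chromosome 6 (15246300 to 15522273, plus strand). It was at 20.6 and 23.2 CPM in siNTC and 22.7 and 22.4 CPM in siEHMT1, and the groups overlapped. With Dox it went from 28.4 to 32.2 CPM in WT, from 25.2 to 30.5 in K450R and from 25.6 to 30.4 in K450RK451R, and from 33.6 to 28.8 in K451R. The counting intervals lay above 0 in K450R (1.21-fold, 1.00 to 1.46) and in K450RK451R (1.19-fold, 1.01 to 1.40). K451R was the 1 line with a lower value. Across lines the log2 fold change was 0.12 (95% interval −0.084 to 0.32, adjusted p = 0.635), and 0.24 without the K451R line, where the unadjusted p fell to 0.0462 and the adjusted p was 0.484. AEBP2, the zinc finger partner of JARID2 in PRC2.2, lies on chromosome 12 (19556979 to 19873735, plus strand). It ranged from 5.16 to 7.38 CPM in the siRNA samples and from 11.3 to 18.3 CPM in the stable lines, where WT and K450R (15.9 to 18.3) were above K451R and K450RK451R (11.3 to 12.9) in both treatments. The log2 fold changes were −0.17 (95% interval −0.70 to 0.36) for siEHMT1 and −0.024 (95% interval −0.29 to 0.24) for Dox.

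MTF2 and PHF19 are the Polycomb-like subunits among the 10 genes, and such subunits bind unmethylated CpG-rich DNA and bring PRC2.1 to it. MTF2 lies on chromosome 1 (93544792 to 93604636, plus strand) and was at 25.7 and 23.5 CPM in siNTC and 23.0 and 26.2 CPM in siEHMT1. In the WT line MTF2 was at 15.6 CPM in Veh and 11.6 in Dox (180 and 100 counts), a log2 ratio of −0.43 with a counting interval of −0.80 to −0.073, and 5.26% of the genes with at least 100 counts had a lower ratio. K451R went from 15.2 to 13.4 CPM and K450RK451R from 14.9 to 13.2, whereas K450R stood at 16.5 and 16.7 CPM. The log2 fold change across lines was −0.18 (95% interval −0.45 to 0.082, adjusted p = 0.562), and it was −0.11 without the WT line. PHF19 lies on chromosome 9 (123617929 to 123657174, minus strand) and was among the lowest members, with 26 to 82 counts per siRNA sample. Its level was 4.41 and 4.86 CPM in siNTC and 5.86 and 6.22 CPM in siEHMT1. Both siEHMT1 samples were thus above both siNTC samples, as for 2 of the 10 members and 20.1% of all genes. The log2 fold change of 0.39 was the largest of the members in the siRNA samples, but its 95% interval ran from −0.15 to 0.94 (adjusted p = 0.663). In the stable lines PHF19 was at 8.50 to 12.4 CPM in Veh and 9.25 to 10.3 CPM in Dox, higher with Dox in 3 lines and lower in K450RK451R, which had the highest Veh level.

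The log2 ratios within lines, 40 in all, were mostly within counting error. A Dox level at least 25% above or 20% below Veh was reached by 3 of them, namely SUZ12 upward in K450R, EZH2 downward in K450R and MTF2 downward in WT. This made 1 of 40 upward and 2 of 40 downward, and none was in K451R or K450RK451R. Of the 56420 pairs of a gene and a line over all genes tested, many of them with few counts, 15.3% were at least 25% higher and 14.1% at least 20% lower. The counting interval lay off 0 for 7 of the 40 ratios, 3 above and 4 below, where over all genes 13.0% of the pairs lay above and 14.7% below. The double mutant K450RK451R had member ratios between −0.27 and 0.25 on the log2 scale, with a median of −0.034, and WT between −0.43 and 0.18, with a median of −0.038. Between lines of the same treatment the members varied about as much as other genes. Their SD across lines was a median of 1.65 times the counting SD in Veh and 1.78 times in Dox, and the medians over genes with at least 30 counts in every line were 1.56 and 1.80.

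**Figure D3:**
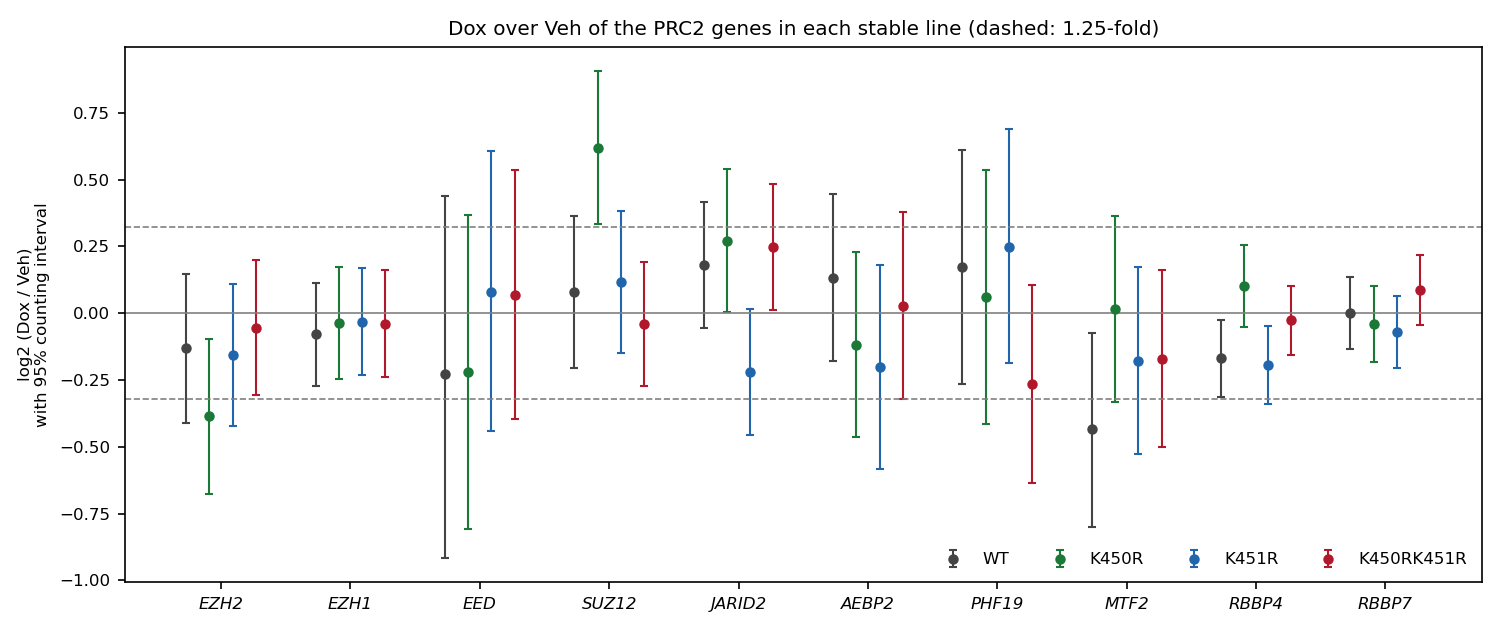
Log2 ratio of Dox over Veh for each PRC2 gene in each line, with 95% counting intervals that cover counting error only, and dashed lines at a 25% higher and a 20% lower level. SUZ12 in K450R stands highest at 0.62, and MTF2 in WT (−0.43) and EZH2 in K450R (−0.39) lie below the lower dashed line.

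Set per length, the highest and the lowest member differed more from each other than any member did with a treatment. Members in the middle were closer together. TPM (the share of all transcripts after correction for gene length) were computed over the union of annotated exons. RBBP7 was highest, with a median of 34.4 TPM in the siRNA samples and 25.9 TPM in the stable lines, followed by RBBP4 with 20.3 and 18.1 TPM. In both tables RBBP7 was above RBBP4 in every sample, and RBBP4 above the next gene. In the siRNA samples the order continued with SUZ12 (12.1 TPM), MTF2 (10.2), EZH1 (9.17) and JARID2 (8.86), whose neighbours overlapped in range. Then came EZH2 (5.87), EED (4.08), AEBP2 (2.26) and PHF19 (2.02), where the ranges of JARID2 and EZH2 and those of EED and AEBP2 were apart. Compared within each sample, the neighbours that overlapped in range kept their order in 3 or 4 of the 4 siRNA samples. In the stable lines EZH1 (13.0 TPM) and JARID2 (10.3) came next, followed by SUZ12 (8.23), MTF2 (5.32), EZH2 (4.84), AEBP2 (4.73), PHF19 (2.94) and EED (1.84). There SUZ12 and MTF2 were apart in range, and the other neighbours below RBBP4 overlapped. EZH2 exceeded AEBP2 in 4 of the 8 conditions, and the other overlapping neighbours kept their order in 7 or 8. Below the leading genes the order depended on the length used. With the longest transcript as the length, EZH2 was at 9.10 to 14.5 TPM and JARID2 at 6.94 to 8.12 TPM in the siRNA samples, so that their order turned, and EZH2 and EED both ranked above JARID2.

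The balance of paired subunits per length was as follows. EZH2 was below EZH1 in all 12 samples, at 0.582 to 0.743 times its level in the siRNA samples and 0.301 to 0.412 times in the stable lines. This order also depended on the length, since with the longest transcript the ratio was 0.923 to 1.18 in the siRNA samples and 0.477 to 0.653 in the stable lines. The MTF2 to PHF19 ratio was 4.37 to 6.49 in the siRNA samples and 1.34 to 2.07 in the stable lines. Any other Polycomb-like protein is left out of that ratio. SUZ12 over EED was 2.77 to 3.19 and 3.35 to 6.27, and JARID2 over AEBP2 was 3.03 to 4.70 and 1.59 to 2.81, in the same order. RBBP7 over RBBP4 was 1.66 to 1.74 and 1.21 to 1.58. With the longest transcript, SUZ12 over EED was 1.597 to 1.84 and 1.93 to 3.62, and RBBP7 over RBBP4 was 2.51 to 2.64 and 1.84 to 2.40. With either length, none of these pairs of ranges overlapped between the 2 tables. How often this holds for pairs of other genes was not computed. Differences between the tables were common. Both siNTC samples were above all 4 Veh lines for 33.5% of all genes and below them for 33.1%.

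**Figure D4:**
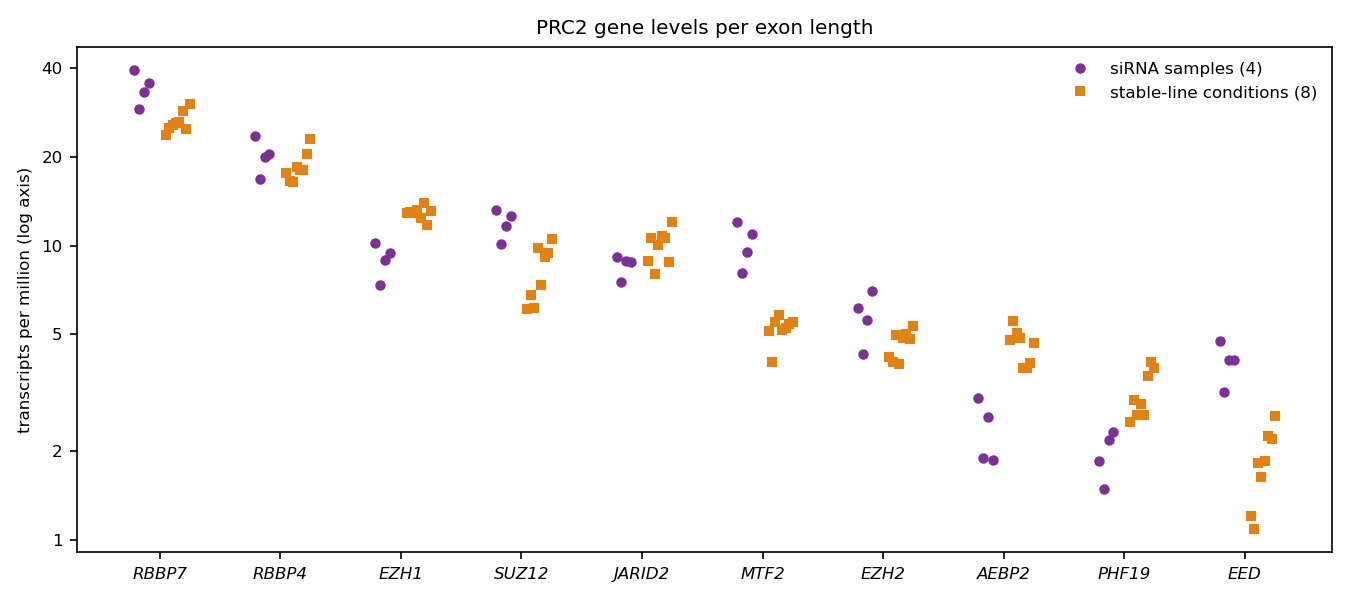
TPM of the 10 PRC2 genes over exon union length on a log axis, ordered by their median over 12 samples, with siRNA samples as purple circles and stable-line conditions as orange squares. RBBP7 and RBBP4 stand above the rest, and the 2 tables lie apart for MTF2, AEBP2, PHF19, EZH1 and EED.

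The largest differences in PRC2 genes lay between the control samples of the 2 tables. Both siNTC samples were above all 4 Veh lines for EED (1.88 times the Veh mean), MTF2 (1.58 times), SUZ12 (1.37 times) and RBBP7 (1.148 times). They were below all 4 for AEBP2 (0.462 times), PHF19 (0.482 times), EZH1 (0.588 times) and JARID2 (0.776 times). EZH2 (0.927 times) and RBBP4 (0.936 times) each had 1 siNTC sample within the Veh range and 1 below it. These 4 and 4 of 10 genes compare with 33.5% of all genes above and 33.1% below, so a difference between the tables was common. EED in siNTC, at a mean of 11.5 CPM against 6.11 CPM in Veh, had a ratio exceeded by 15.1% of genes, and for AEBP2 88.6% of genes had a higher ratio. The summed level of 20 proliferation genes was 2283 CPM in siNTC and 1574 to 1667 CPM in Veh, and that of the 9 luminal markers was 5764 CPM in siNTC and 11880 to 12730 CPM in Veh. The 4 fibroblast genes, almost wholly COL1A1, summed to 15.5 CPM in siNTC and 34.4 to 41.9 CPM in Veh. Their part in the PRC2 differences was not tested. The siRNA pool, the vector, puromycin selection and the serum all differ between the tables and cannot be told apart. Library preparation and sequencing run may differ too, which was not tested. The 2 pseudogenes that resemble ribosomal RNA held 0.0531 to 10% of counts in the siRNA samples and 0.0313 to 0.0923% in the stable lines. In bulk RNA, fewer cells of a type and less RNA per cell cannot be told apart either.

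**Figure D5:**
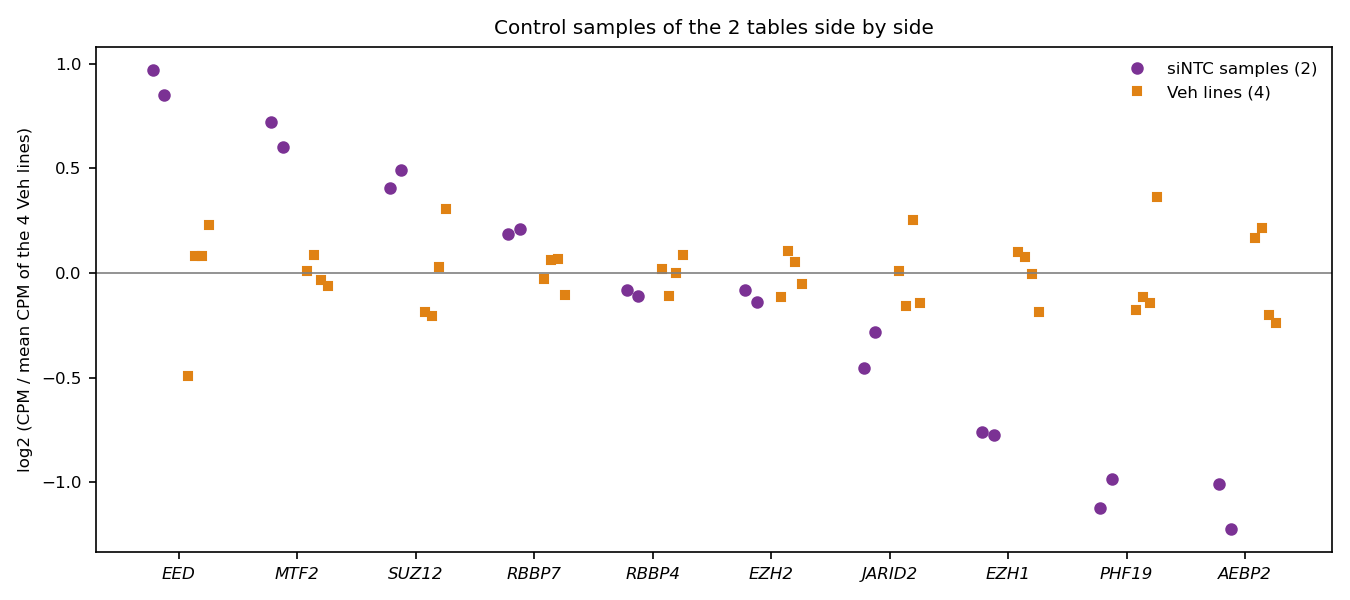
Log2 of each control sample over the mean of the 4 Veh lines for the 10 PRC2 genes, with siNTC samples as purple circles and Veh lines as orange squares. The siNTC samples lie above all Veh lines for EED, MTF2, SUZ12 and RBBP7 and below all of them for JARID2, EZH1, PHF19 and AEBP2.

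Other Polycomb genes were also followed. Of 4 further accessory genes tested, 0 passed in either comparison, and C17orf96 (EPOP, an accessory subunit of PRC2.1) had the lowest p with Dox, at a log2 fold change of 0.47 ± 0.15 (SE, adjusted p = 0.113). Among the H3K27 demethylases, KDM6B fell with Dox by 0.36 ± 0.08 (SE, log2, adjusted p = 0.0115). The WT line had 70.9 CPM in Veh and 53.9 in Dox, K450R had 69.1 and 66.6, K451R had 55.5 and 43.4, and K450RK451R had 91.2 and 58.7, so that all 4 lines were lower. KDM6A did not pass, at 0.032, and neither gene passed in siEHMT1. Of 27 genes of PRC1, the complex that ubiquitinates histone H2A, 0 passed in either comparison. The lowest p there was that of PHC3, which encodes a polyhomeotic subunit, in siEHMT1 (log2 fold change −0.59, adjusted p = 0.0672). Of 9 genes of PR-DUB, the complex that removes that ubiquitin, OGT fell with Dox by 0.33 ± 0.08 (SE, log2, adjusted p = 0.0144). OGT, an O-GlcNAc transferase with many partners, was lower with Dox in all 4 lines, for example 104 against 64.1 CPM in WT. Of 22 genes of other complexes that hold RBBP4 or RBBP7, 0 passed, and SAP30 with Dox was nearest (log2 fold change −0.33, adjusted p = 0.0715).

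Genes known to be silenced by PRC2 were examined as well. Of 18 genes known as EZH2-repressed in cancer, 11 were tested and 0 passed in either comparison, with a median log2 fold change of 0.0070 for siEHMT1 and −0.031 for Dox. The largest of them was MSMB, a prostate secretory protein gene, at 1.98 and 0.934 CPM in siNTC and 3.48 and 3.87 CPM in siEHMT1 (log2 fold change 1.21, adjusted p = 0.270). Its level in siNTC replicate 2 was near the floor of that sample, 0.561 CPM. At an unadjusted p under 0.05 (edgeR), 1 of the 11 genes rose and 1 fell in siEHMT1. In either direction 9.55% of all genes passed that threshold. Of 28 developmental regulators known as targets of the H3K27 mark, 5 had enough counts to be tested in each comparison, and 0 passed. Among 20 proliferation genes PCNA, the DNA polymerase clamp, rose with Dox by 0.36 ± 0.07 (SE, log2, adjusted p = 0.00268), and 0 passed in siEHMT1. Among the luminal markers TMPRSS2 (0.22) and HOXB13 (0.19) rose with Dox on the log2 scale (adjusted p of 0.0177 and 0.0492). The 9 luminal markers did not move together, with 6 log2 fold changes above 0 and 3 below it. At an unadjusted p under 0.05 (edgeR) 3 fell, a threshold that 14.4% of all genes passed in either direction. At an adjusted p under 0.05, 0 fell. The PRC2 genes were thus measured in cells whose luminal genes differed as well. The part of these differences in the PRC2 values was not tested.

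The genes whose level was most like that of EZH2 were NRF1 (Pearson r = 0.912), DLG5 (0.873), DDX11 (0.872), PTPRM (0.866) and ECHDC2 (0.864). This was computed over 12 samples, each centred on the mean of its own table, among 8593 other genes. Those genes had a mean of at least 100 counts in both tables, and the samples share library depth and treatment. The median r over these genes was −0.0155. As the 5 were picked as the highest of many, the selection itself raises their values. Whether such values arise by chance was not tested, nor was a link to the NRF1 word in the EZH2 promoter. NRF1 is a transcription factor for mitochondrial genes, and DDX11 is a DNA helicase. No PRC2 member was among the 5. Between the 7 members with enough counts, r ranged from −0.596 (EZH1 and SUZ12) to 0.521 (EZH1 and RBBP7) with a median of 0.071 over 21 pairs, a description with no test.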

How the data were processed

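Gene expression in LNCaP cells was measured by RNA-seq of total RNA, with a stranded kit and 51-nt single-end reads. The authors deposited raw counts per Ensembl gene, without normalization, in 2 tables, of which 1 holds the siRNA samples and the other the stable lines. Per the labels, FastQC 0.11.9, STAR 2.7.2 and featureCounts 1.6.4 were used with hg19. The annotation release and the strand setting are not given in the sources used here, so overlapping genes and near-identical copies could share reads.

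The PRC2 genes and all other gene lists were chosen with earlier results of these data known. All 10 PRC2 genes are named, and of each other list the genes with an adjusted p under 0.05 and at most the 3 with the lowest p per comparison. Some genes that this rule would name are not reported here. EHMT1 was named as the targeted gene, and 5 genes as most like EZH2. Groups and replicate numbers came from the sample labels. The 2 columns of a stable-line condition were set against each other in a chi-square test on genes whose summed count reached 20, and were then added. Counts were tested with the quasi-likelihood method of edgeR 4.0.16 (R 4.3.3) after TMM scaling and its own filter on low counts, with Benjamini-Hochberg adjustment over all genes tested. The siRNA samples were fitted alone. For Dox against Veh, the 4 lines served as replicates, with line as a term. CPM were scaled over all 12 samples together. Within a line, exact conditional binomial 95% intervals were computed. The reads carry no molecular identifiers, so intervals and the floor of 3 counts cover counting error only. Gene positions and lengths came from GENCODE on GRCh37, in which 55538 of the 57773 identifiers were found. Promoters came from RefSeq, where all 10 genes matched, and the words searched in them were chosen after the values were seen.

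DESeq2 1.42.0, limma-voom (limma 3.58.1), upper-quartile normalization, other filters, the replicate number as a block and left-out samples were alternatives. The procedure was tested on simulated counts. Same-numbered siRNA samples did not deviate together over genes, which with 2 samples per group cannot exclude a pairing. They were not paired in the main fit.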

Additional observations from a re-analysis of the deposited data

Results flagged for a closer look

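Of 20 sets of 4 values (each PRC2 gene in the 4 Veh and in the 4 Dox lines), 1 held a line that stood apart. PHF19 in Veh was at 12.4 CPM in K450RK451R and at 8.50 to 8.88 CPM in the other 3 lines, so that the gap to the nearest line was 0.885 of the whole range, above Dixon's 95% critical value for 4 samples. Chance flags about 5% of such sets, which would be 1 of the 20 examined. The value rests on 119 counts. In Dox the same line was at 10.3 CPM, within the range of the others.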

How the results depend on the processing

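In the siRNA samples 0 PRC2 genes passed an adjusted p under 0.05 in every alternative (DESeq2 gave an adjusted p for 2 of the 10). The number of all genes called moved from 19 to 12 with DESeq2, 12 with no filter on low counts and 118 with the replicate block, and to between 38 and 110 when each sample was left out. EZH2 without siEHMT1 replicate 1 was the 1 member to reach an unadjusted p under 0.05, so the count of members ranged from 0 to 1. For Dox against Veh the all-gene count moved from 298 to 140 with DESeq2 and 4 with no line term, and to between 114 and 501 when each line was left out, with 0 members called. Members at an unadjusted p under 0.05 then ranged from 0 to 1 (JARID2 without K451R, SUZ12 without K450RK451R).

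When the 16 columns were kept apart, 2 members passed with the replicate block and 2 with no replicate block (EZH2 at −0.18 and SUZ12 at 0.20, log2), 4 passed at an unadjusted p under 0.05 in each, and 3860 and 3849 of all genes passed. This tests the reads of these libraries, whose columns differ by counting noise only. The replicate block changed no call of a member. For the siRNA samples the Pearson correlation of the deviations of same-numbered samples was −0.0051 and Spearman's was 0.031, and the block gave EZH2 0.23.

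Values near 0 changed sign. MTF2 for siEHMT1 was 0.018 with upper-quartile normalization and EED −0.0061 with limma-voom. RBBP7 with Dox was 0.013 with upper-quartile normalization and 0.0058 with no filter, and EED 0.015 with no line term. Leaving out a siRNA sample gave ranges across 0 for EZH1 (−0.0072 to 0.061), EED (−0.042 to 0.066), SUZ12 (−0.036 to 0.066), JARID2 (−0.051 to 0.13), AEBP2 (−0.42 to 0.068), MTF2 (−0.10 to 0.085) and RBBP7 (−0.080 to 0.010). Leaving out a line did so for EED (−0.10 to 0.0062), AEBP2 (−0.088 to 0.025), PHF19 (−0.029 to 0.17) and RBBP7 (−0.035 to 0.023). No call was lost, since none of these passed. With the columns numbered 1 alone, 7 ratios of 40 were at least 25% higher or 20% lower, in place of 3. With the longest transcript as the length, the median EZH2 to EZH1 ratio moved from 0.615 to 0.975 in the siRNA samples and from 0.370 to 0.588 in the stable lines. That ratio rests on the same counts with either length, and only the length changed. For EZH2 it was 10774 bases of exon union or 4502 of the longest transcript, and for EZH1 6988 or 4633. The cause of the other shifts was not tested, and depth limits EED, PHF19 and AEBP2 most.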

Other observations

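CDKN1C, a cell-cycle inhibitor gene on the list of EZH2-repressed genes, differed most plainly between the tables and was chosen after its values were seen. It was at 2.07 and 2.80 CPM in siNTC, 2.29 and 2.503 CPM in siEHMT1, and 59.6 to 108 CPM in the 8 stable-line conditions. With Dox its log2 fold change was −0.26 (adjusted p = 0.0973, edgeR), from 102 to 81.4 CPM in K450R, 80.7 to 59.6 in K451R and 87.8 to 63.1 in K450RK451R, but from 96.9 to 108 in WT. Over the same samples EZH2 was at 22.8 to 30.6 CPM in the siRNA table and 20.7 to 27.02 CPM in the stable lines. The tables differ in transfection, vector, selection and serum, and perhaps in library preparation and sequencing run, which cannot be told apart here.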
